A study of Mus musculus with 12 samples.

Results

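The 10 genes described here are Ccr7, its ligand genes Ccl19 and Ccl21a, and 7 genes tied to mature, migrating dendritic cells, namely Fscn1, Il4i1, Lad1, Bcl2l14, Zmynd15, Socs2 and Cd200. They were taken by name from the 35999 gene symbols of the deposited count table, and all 10 were found. The members were selected on these same counts, with the difference between anti-CD4 and PBS tumours known, so the members' own differences between the groups are given as a description, with no test.

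Bulk RNA came from AB1-HA tumours, a transplantable mouse mesothelioma line carrying the influenza haemagglutinin gene, grown under the skin of male BALB/c mice aged 8 to 10 weeks. One group of 6 tumours was from mice given PBS and the other group of 6 was from mice given 100 µg of a monoclonal antibody to CD4, which depletes CD4 T cells. Both groups were dosed on days -3, 0 and 7 around the day of inoculation, and tumours were removed on day 9. All mice carried the same line. The labels do not say which tumours came from separate mice, so p-values measure the spread between these 12 samples, which may be partly technical.

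A dendritic cell that has taken up antigen and been activated matures: it raises costimulatory molecules, rebuilds its actin skeleton and displays the chemokine receptor CCR7. CCR7 follows CCL19 and CCL21, which lymphatic endothelium and the reticular fibroblasts of lymph nodes make, and so guides the cell out of the tissue and into the T cell zone. Naive T cells, some memory and regulatory T cells and B cells use the same receptor. In tumours, dendritic cells in this mature state also carry regulatory genes such as Il4i1, Socs2 and Cd200.

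Library totals were 30.75 to 41.93 M counts (M, mega) in PBS and 34.45 to 62.06 M counts in anti-CD4 tumours, so the anti-CD4 libraries were deeper on average, with a mean of 46.4 M against one of 36.08 M counts. Cd4 fell from 6.31 ± 2.34 to 1.31 ± 0.50 CPM (CPM, TMM-normalised counts-per-million; mean ± SD, n = 6 each; edgeR adjusted p = 0.00298). Msln, the mesothelin gene of mesothelial cells, chosen after its value was seen, had a mean of 126 ± 17.5 CPM with PBS and of 122 ± 23.9 CPM with the antibody, while the mesothelial markers Upk3b and Muc16 were too low to be tested. Ptprc, a gene of leukocytes in general, was read beside Msln. Its means were 117 ± 34.2 CPM with PBS and 79.7 ± 28.3 CPM with the antibody, with overlapping groups (log2 change -0.55, edgeR adjusted p = 0.161). Of 17940 genes tested with edgeR, 5.28% were called at an adjusted p under 0.05, with 418 (2.33%) lower and 529 (2.95%) higher in anti-CD4 tumours. Of these calls 55.9% were higher, against 35.5% after upper quartile scaling. Over all tested genes the median log2 fold change was close to 0, at -0.000326.

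The members divided by whether the groups overlapped. For Ccr7, Bcl2l14, Lad1 and Il4i1 all 6 anti-CD4 values lay under the lowest PBS value, and for Zmynd15 5 of 6 did. Fscn1, Socs2, Cd200 and both ligands had overlapping groups. In all, 5 of 10 members met the edgeR call for lower and 0 for higher, beside 2.33% and 2.95% of all tested genes (5.28% in either direction), and 4 members did not overlap, beside 1.19% of tested genes with every anti-CD4 tumour below every PBS tumour. These counts follow from how the set was chosen. The members' median log2 fold change was -0.855. The count of 5 became 3 without anti-CD4 2, 3 without anti-CD4 5, 3 with a stricter filter that left 4 members untested, 1 when the library total (log2) was a covariate, and 1 with a replicate block.

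**Figure D1:**
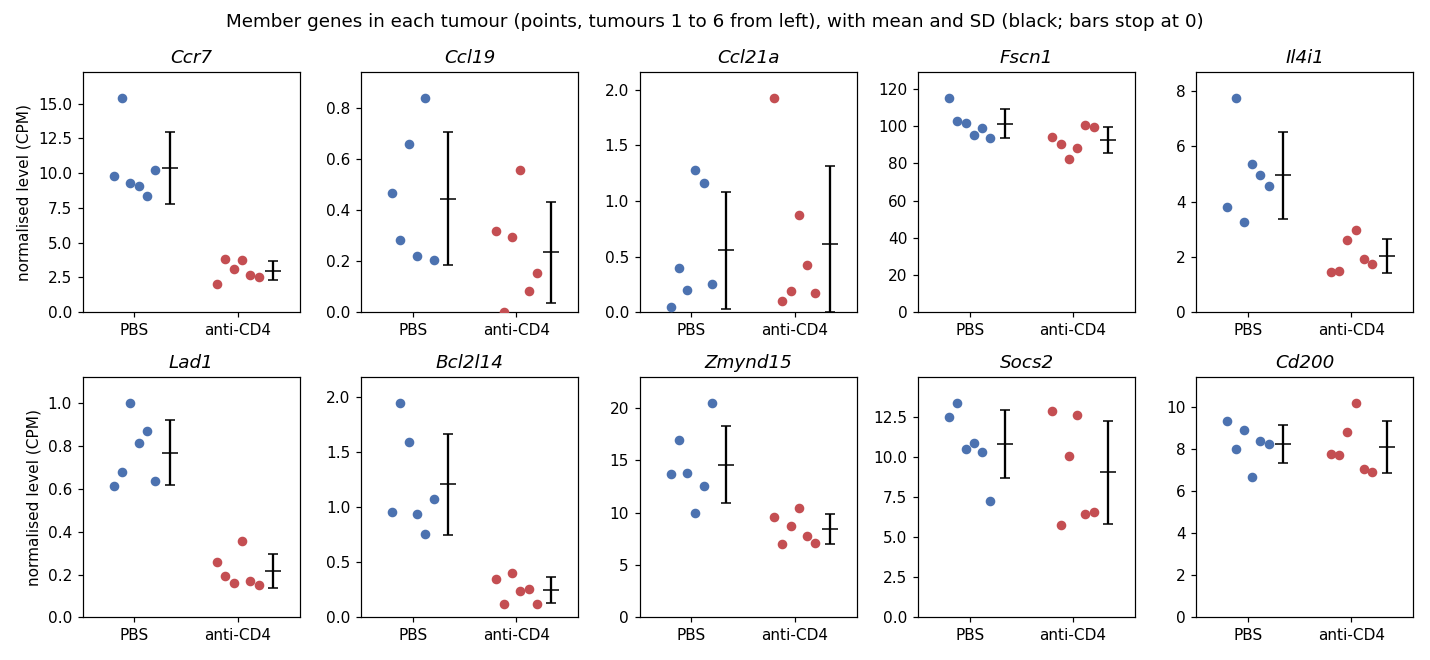
Normalised level (CPM, linear axis from 0) of each member in the 6 PBS (blue) and 6 anti-CD4 (red) tumours, 1 point per tumour, with the group mean and SD in black. Ccr7, Il4i1, Lad1 and Bcl2l14 show no overlap between groups, while Ccl21a is widely spread in both.

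Ccr7, the receptor, lies on chromosome 11 from 99144196 to 99155077 (GRCm38, minus strand) and overlaps no other annotated gene. Its level had a lowest, median and highest value of 8.39, 9.53 and 15.4 CPM in PBS tumours and of 2.05, 2.87 and 3.85 CPM in anti-CD4 tumours. Every PBS tumour was above every anti-CD4 tumour, and PBS 2 stood above the other PBS tumours. The anti-CD4 mean was 28.8% of the PBS mean, and the log2 fold change was -1.79 (SE 0.18), with values of -1.90 to -1.64 over 21 other settings. In bulk RNA, fewer cells of a type and less RNA per cell cannot be told apart.

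CCL19 and CCL21 are the ligands of that receptor, and their genes lie 16.3 kb apart on the minus strand of chromosome 4. Ccl19 runs from 42754525 to 42756577 and Ccl21a from 42772860 to 42773993. Ccl19 had lowest, median and highest levels of 0.205, 0.374 and 0.842 CPM in PBS and 0, 0.224 and 0.557 CPM in anti-CD4 tumours. These values rest on 7 to 29.4 estimated counts per PBS tumour and 0 to 27.9 per anti-CD4 tumour. The 0 was in anti-CD4 2, where a count of 0 allows up to 0.0726 CPM (3 counts, counting error only). The Ccl19 groups overlapped, with 3 anti-CD4 tumours below the lowest PBS tumour. Its log2 fold change of -0.92 (SE 0.59) was -2.18 in limma voom with sample weights, -1.71 without anti-CD4 3 and 4 and -1.42 without anti-CD4 4 alone. It was smaller under other settings, at -0.66 without PBS 5, -0.68 without anti-CD4 2 and -0.75 without anti-CD4 5.

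Ccl21a had lowest, median and highest levels of 0.0491, 0.325 and 1.28 CPM in PBS and 0.0968, 0.307 and 1.93 CPM in anti-CD4 tumours. The highest PBS tumour was 26.1 times the lowest, and the highest anti-CD4 tumour 19.9 times the lowest, the widest spread of any member among those without a zero. PBS 4 and PBS 5, at 1.28 and 1.16 CPM, and anti-CD4 1 and 4, at 1.93 and 0.875 CPM, were the high tumours of their groups. The group means were 0.557 ± 0.529 and 0.614 ± 0.705 CPM (SD, n = 6 each). Its log2 fold change of 0.14 (SE 0.80) had no stable sign: it was -0.62 without anti-CD4 1, -0.11 without PBS 1, -0.18 with a replicate block and 1.49 with the library total as a covariate, and was negative under 7 of 20 settings. The near-identical gene Ccl21b, its relatives Ccl21c, Gm13304, Gm21541 and Gm10591, and the pseudogene Ccl19-ps1 reached at most 2.2 estimated counts in any tumour. At 2 to 67 counts per tumour and with this spread, no difference in Ccl21a was detectable. Only 4 PBS and 3 anti-CD4 tumours reached the filter level for Ccl19, and likewise for Ccl21a.

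Promoter sequences are shown for the members with the largest differences, Bcl2l14 and Lad1, and for the ligand genes, so that genes whose groups did not overlap can be read beside genes whose groups did. RefSeq promoter entries on GRCm38.p6 matched 7 of 10 members and gave 8 starts. Ccr7, Zmynd15 and Socs2 had none. The 250 bases before each start were searched on both strands for the kappaB consensus (the site of NF-kB factors, a main driver of dendritic cell maturation), for the AP-1 site TGANTCA and for the interferon-stimulated response element (GAAA, 2 bases of any kind, GAAA). Bases inside an annotated UTR are left out of what is printed, which removes the Il4i1 window and all but a short part of the Ccl19 window. Capitals mark a motif match.
Lad1, chr1:135818348-135818597, plus strand: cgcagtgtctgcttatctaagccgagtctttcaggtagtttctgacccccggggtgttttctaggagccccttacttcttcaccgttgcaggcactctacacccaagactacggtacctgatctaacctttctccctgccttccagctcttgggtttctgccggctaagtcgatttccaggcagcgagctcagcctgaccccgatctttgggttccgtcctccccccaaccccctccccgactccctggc
Bcl2l14 first start, chr6:134396079-134396317, plus strand: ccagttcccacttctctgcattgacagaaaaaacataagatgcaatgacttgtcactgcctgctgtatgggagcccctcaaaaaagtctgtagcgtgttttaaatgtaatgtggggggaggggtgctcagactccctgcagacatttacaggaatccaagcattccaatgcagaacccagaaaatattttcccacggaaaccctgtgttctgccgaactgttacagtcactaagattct
Bcl2l14 second start, chr6:134414178-134414427, plus strand: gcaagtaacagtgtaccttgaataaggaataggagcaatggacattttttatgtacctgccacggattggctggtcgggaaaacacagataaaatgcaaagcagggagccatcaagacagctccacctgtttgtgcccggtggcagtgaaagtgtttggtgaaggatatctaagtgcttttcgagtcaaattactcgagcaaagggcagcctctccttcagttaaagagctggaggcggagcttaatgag
Ccl21a, chr4:42773994-42774241, minus strand: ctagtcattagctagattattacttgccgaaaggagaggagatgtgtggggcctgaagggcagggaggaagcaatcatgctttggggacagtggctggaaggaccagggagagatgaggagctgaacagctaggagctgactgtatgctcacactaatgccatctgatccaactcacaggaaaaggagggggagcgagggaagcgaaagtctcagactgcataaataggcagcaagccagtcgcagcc
Ccl19 around the match, chr4:42756554-42756583, minus strand: ttttgggacaGAAAGTGAAAgctcaaggca

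The 8 windows held 1 match, the letters in capitals 208 to 199 bases before the RefSeq start of Ccl19, which lies inside the GENCODE span given above, so that the match does too. It is of the interferon-stimulated type found in 2.98% of 32841 RefSeq promoter windows of this length. The kappaB consensus, present in 3.9% of all windows, and the AP-1 site, present in 6.75%, were matched in 0 of the 8. These are matches of letters in short windows and say nothing of binding.

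Bcl2l14 encodes BCL-G, a protein of the BCL2 family, on chromosome 6 from 134396318 to 134438736 (plus strand). Its lowest, median and highest levels were 0.755, 1.02 and 1.95 CPM in PBS and 0.119, 0.247 and 0.403 CPM in anti-CD4 tumours. PBS 2 and PBS 3 were the high PBS tumours, and all anti-CD4 tumours were below every PBS tumour. At 20.4% of the PBS mean and a log2 fold change of -2.31 (SE 0.34), this was the largest difference among the members. The antisense gene 4933406J09Rik covers 577 of its 4093 annotated exon bases and was not analysed here.

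Lad1 encodes ladinin, a basement membrane protein of epithelia, on chromosome 1 from 135818598 to 135833342 (plus strand), with no overlapping gene. It had lowest, median and highest levels of 0.614, 0.745 and 1.002 CPM in PBS and 0.153, 0.182 and 0.358 CPM in anti-CD4 tumours. The groups did not overlap, and anti-CD4 4 was the highest of its group. The anti-CD4 mean was 28.1% of the PBS mean (log2 fold change -1.82, SE 0.27). Both genes are scarce: Lad1 had 24 to 41 counts per PBS tumour and 6 to 18 per anti-CD4 tumour, and Bcl2l14 had 26 to 69 and 5 to 15. Only 2 of 6 anti-CD4 tumours reached the filter level of 0.26 CPM for either, so both entered the test through the PBS tumours. Of 16 mesothelial and epithelial markers, whose cells can express Lad1, 9 could be tested and 0 were called by edgeR (1 at an unadjusted p under 0.05, 0 by DESeq2 and 1 by limma voom, and 1 lower without anti-CD4 4). Their summed level was 116 to 175 CPM in PBS and 120 to 179 CPM in anti-CD4 tumours, and none was at 0 in all tumours. Most of that sum was Msln, so it says little of the other markers. The marker with the smallest p was Cdh1, at 14.6 ± 5.40 CPM with PBS and 7.53 ± 5.27 CPM with the antibody (mean ± SD of 6; log2 change -0.95, edgeR adjusted p = 0.144). Lrrn4 followed at 0.79 (0.239) and Epcam at -0.68 (0.409), and 5 of the 9 values were negative.

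Il4i1 encodes a secreted amino acid oxidase that breaks down phenylalanine and tryptophan and restrains T cells. It lies on chromosome 7 from 44816387 to 44840809 (plus strand). Its lowest, median and highest levels were 3.25, 4.77 and 7.76 CPM in PBS and 1.47, 1.83 and 2.96 CPM in anti-CD4 tumours. As for Ccr7, PBS 2 was the highest tumour and the groups did not overlap. The anti-CD4 mean was 41.1% of the PBS mean (log2 fold change -1.28, SE 0.23). The split of reads at this locus is uncertain, since exons of Tbc1d17 on the opposite strand cover 83.9% of the Il4i1 exon bases, Nup62 on the same strand covers 2.38%, and the sources used here do not say whether reads were counted by strand. Tbc1d17 averaged 43.7 ± 1.42 CPM with PBS and 41.3 ± 2.74 CPM with the antibody, and Nup62 73.2 ± 7.91 and 79.9 ± 11.6 CPM (mean ± SD of 6), and neither passed the edgeR test (adjusted p = 0.294 and 0.395).

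Zmynd15, a MYND zinc finger gene best known from spermatids, lies on chromosome 11 from 70459433 to 70466202 (plus strand). Its lowest, median and highest levels were 9.94, 13.8 and 20.5 CPM in PBS and 6.97, 8.29 and 10.5 CPM in anti-CD4 tumours. The groups met in PBS 4, at 9.94 CPM, and anti-CD4 4, at 10.5 CPM. The anti-CD4 mean was 58.0% of the PBS mean (log2 fold change -0.79, SE 0.16). Its start shares 552 bases, or 12.5% of its exon bases, with Cxcl16 on the opposite strand, a chemokine gene that fell as well, from 86.9 ± 18.01 to 59.0 ± 9.19 CPM (mean ± SD of 6; log2 change -0.56, edgeR adjusted p = 0.0397). How far reads of Cxcl16 enter the Zmynd15 count was not tested.

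**Figure D2:**
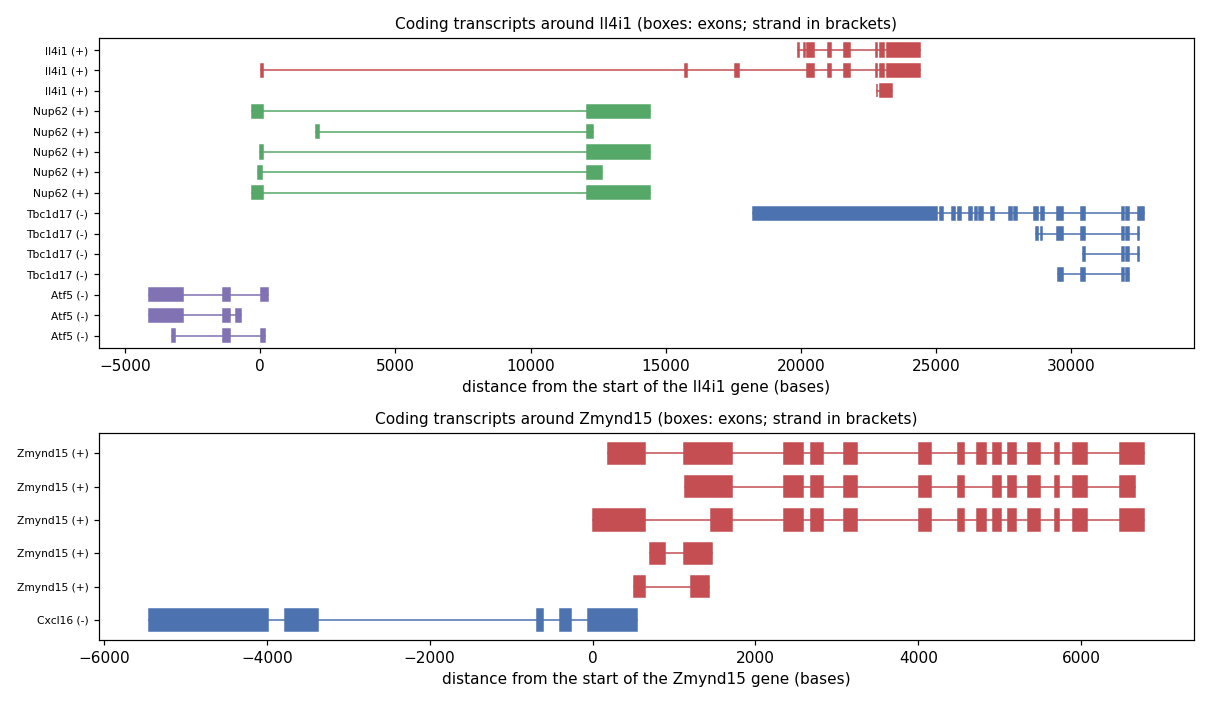
Coding transcripts of GENCODE M21 around Il4i1 (top) and Zmynd15 (bottom), with exons as boxes against distance in bases from the start of the member gene. One long exon of Tbc1d17 on the opposite strand covers the 3' part of Il4i1, and the first exon of 1 Zmynd15 model overlaps that of Cxcl16 by 552 bases.

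Fscn1 encodes fascin, which bundles actin into the protrusions of mature dendritic cells and is also made by many tumour cells. It lies on chromosome 5 from 142960343 to 142973185 (plus strand). It had lowest, median and highest levels of 93.5, 100.3 and 115 CPM in PBS and 82.1, 92.3 and 101 CPM in anti-CD4 tumours. The groups overlapped in 3 tumours each, and the spread within a group was the smallest of the members (coefficient of variation 7.65% in PBS and 7.63% in anti-CD4 tumours). The log2 fold change was -0.13 (SE 0.06), and -0.21 with the library total as a covariate. With 3050 to 5852 counts per tumour, counting error is not what limits this value.

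Socs2 encodes a suppressor of cytokine signalling, on chromosome 10 from 95385362 to 95417180 (minus strand). It had lowest, median and highest levels of 7.24, 10.7 and 13.3 CPM in PBS and 5.76, 8.29 and 12.8 CPM in anti-CD4 tumours. The anti-CD4 tumours split into 1, 3 and 4, at 10.0 to 12.8 CPM, and 2, 5 and 6, at 5.76 to 6.54 CPM, below every PBS tumour. The log2 fold change was -0.26 (SE 0.22), with values from -0.48 to -0.10 over 21 settings.

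Cd200 encodes a surface glycoprotein that inhibits myeloid cells through its receptor and is made by lymphocytes, endothelium and dendritic cells. It lies on chromosome 16 from 45382135 to 45409053 (minus strand). Its lowest, median and highest levels were 6.66, 8.31 and 9.35 CPM in PBS and 6.92, 7.75 and 10.2 CPM in anti-CD4 tumours, so the lowest tumour was of the PBS and the highest of the anti-CD4 group. The log2 fold change of -0.03 (SE 0.12) turned to 0.01 without PBS 1, without anti-CD4 5 or without anti-CD4 6.

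**Figure D3:**
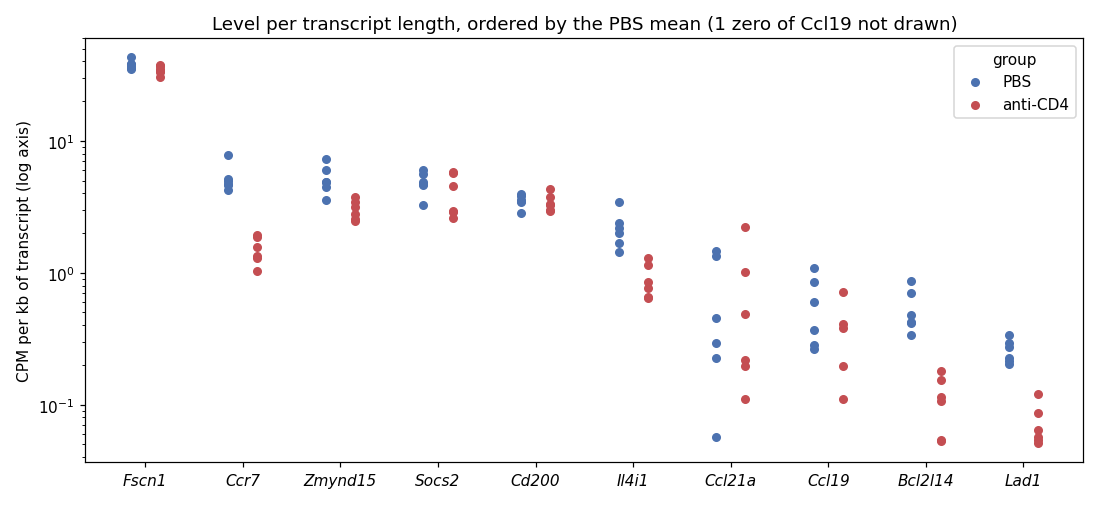
Level per kb of the longest coding transcript (CPM per kb, log axis) of each member in the 12 tumours, ordered by the PBS mean. Fscn1 lies far above the rest at 37.8 CPM per kb in PBS tumours, and Ccr7 moves from beside Zmynd15 in PBS (blue) to below it in anti-CD4 tumours (red).

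Levels of different genes were compared per kb of the longest coding transcript. Fscn1 was first in both groups, at 37.8 ± 2.89 CPM per kb in PBS and 34.6 ± 2.64 CPM per kb in anti-CD4 tumours (SD, n = 6 each), above the next gene without overlap. In PBS tumours Ccr7 (5.24 ± 1.295), Zmynd15 (5.20 ± 1.31), Socs2 (4.85 ± 0.95), Cd200 (3.52 ± 0.39) and Il4i1 (2.18 ± 0.69 CPM per kb) followed, each overlapping its neighbour in the order. Ccl21a (0.64 ± 0.61), Ccl19 (0.577 ± 0.337) and Bcl2l14 (0.54 ± 0.20 CPM per kb) came next and did not differ beyond their spread, and Lad1 was last at 0.257 ± 0.051 CPM per kb, below every Bcl2l14 value. In anti-CD4 tumours Ccr7 moved from rank 2 to rank 5, at 1.51 ± 0.36 CPM per kb, behind Socs2 (4.07 ± 1.45), Cd200 (3.45 ± 0.53) and Zmynd15 (3.02 ± 0.50 CPM per kb), with no overlap with Zmynd15. By their means the ligand genes were at ranks 7 and 8 in both groups, at 0.706 ± 0.81 CPM per kb for Ccl21a and 0.304 ± 0.258 CPM per kb for Ccl19 in anti-CD4 tumours. The order did not hold in each tumour, since anti-CD4 1 had Ccl21a at 2.22 and Ccr7 at 1.03 CPM per kb.

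Of the other genes of the mature dendritic cell programme, those that passed the test were lower, and most did not pass. Like the other gene lists below, this list was chosen with earlier results of these data known. Its counts are therefore no independent support for the members' differences. Of 45 tested genes among 47, 9 fell and 0 rose (3 were higher at an unadjusted p under 0.05, and 2 in DESeq2 and 3 in limma voom after adjustment), beside 2.33% lower over all genes. DESeq2 called 1157 lower and 1337 higher of all 17940 tested genes, and limma voom 3200 and 2848. The list median was -0.336, against -0.000326 over all tested genes, and 40 of 45 values were negative. For 7 genes the groups did not overlap, beside 1.19% of all tested genes with every anti-CD4 tumour below every PBS tumour. Il12b, the p40 chain of interleukin 12 and 23, fell from 3.80 ± 1.26 to 1.08 ± 0.16 CPM (mean ± SD of 6; log2 change -1.81, SE 0.21; edgeR adjusted p = 0.00298). Ccl22, a chemokine for CCR4-bearing T cells, fell from 12.4 ± 3.51 to 3.91 ± 1.23 CPM (-1.67, SE 0.22, edgeR adjusted p = 0.0043).

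These 2 genes had differences near that of Ccr7, while those of the other called genes were smaller. Pdcd1lg2, also of this list and named after its value was seen, was not called. Its log2 change was larger, at -2.26 (SE 0.65, edgeR adjusted p = 0.059). Samsn1, an adaptor of immune cells, fell by 0.80 on the log2 scale, Cd40, the receptor of CD40 ligand, by 0.74, and Myo1g, a myosin of blood cells, by 0.65. Traf1, an adaptor of TNF receptors, fell by 0.34, Stat4, a transcription factor downstream of interleukin 12, by 1.45, and Cxcl16 by 0.56. H2-M2, a nonclassical class I gene named after its value was seen, fell by 1.28. The count of 9 was 4 without PBS 2, 3 without PBS 3 or without PBS 6, and 2 without anti-CD4 2, 5 or 6. It was 2 with a replicate block and 1, Il12b, with the library total as a covariate. Il12b kept its call in all 21 settings and Ccl22 in 20 of 21.

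**Figure D4:**
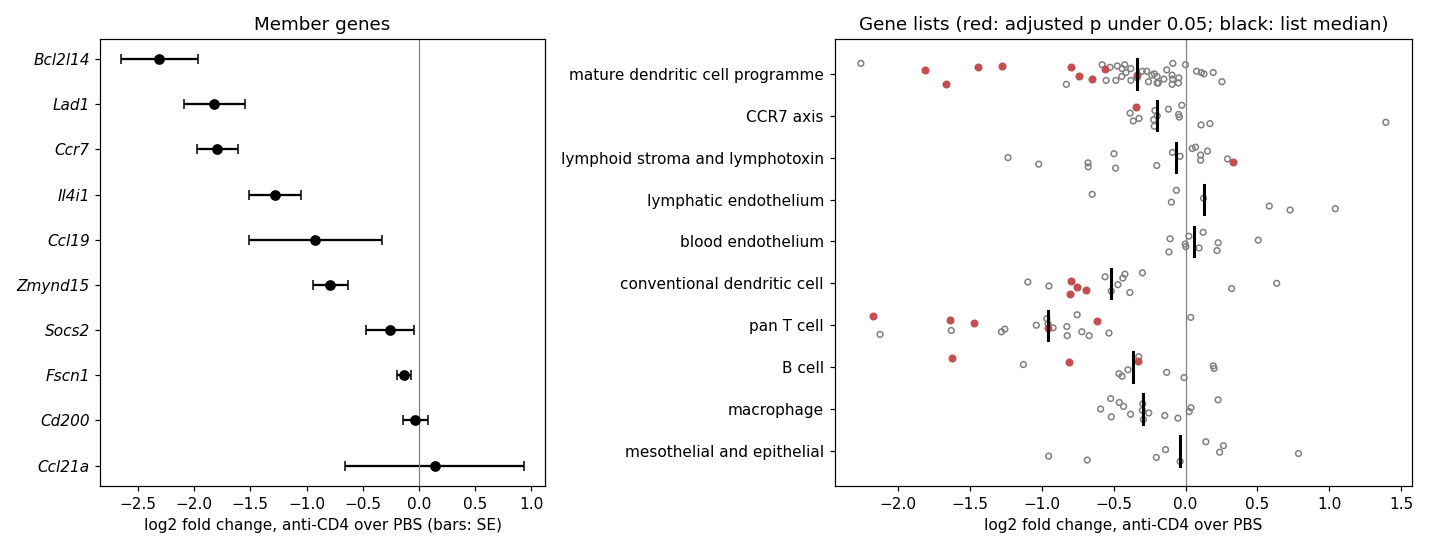
Left, log2 fold change of each member with its SE. Right, log2 fold changes of the tested genes of each list, in red where the edgeR adjusted p was under 0.05, with the list median as a black bar at, for example, -0.336 for the mature dendritic cell programme and -0.959 for T cells.

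Few other genes of the CCR7 pathway passed the test. Of 24 genes of ligand supply, scavenging and receptor signalling, 21 were in the table and 15 could be tested. By edgeR, 1 fell and 0 rose (1 higher at an unadjusted p under 0.05, and 1 in DESeq2 and 2 in limma voom after adjustment), and the median was -0.198. Arrb2, the beta-arrestin that binds activated CCR7, fell from 77.9 ± 9.68 to 61.4 ± 2.41 CPM (mean ± SD of 6; log2 change -0.34, SE 0.07; edgeR adjusted p = 0.0239), with no overlap between groups. That call was lost without PBS 2 or 3, without anti-CD4 2, 5 or 6, with a replicate block and with the library total as a covariate. Dock2, an activator of Rac in migrating leukocytes, had a log2 fold change of -0.39 (edgeR adjusted p = 0.0603) and Rap1a, a small GTPase of adhesion, one of 0.17 (0.082).

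Markers of the cells that make the ligands gave few calls. Of 7 tested among 9 lymphatic endothelial markers, 0 were called by edgeR (1 lower and 2 higher at an unadjusted p under 0.05, with 2 higher in DESeq2 and 1 in each direction in limma voom), with a median of 0.124, and 1 was called higher without PBS 4. Sema3d, a semaphorin, was at 1.04 (edgeR adjusted p = 0.058), Lyve1, a hyaluronan receptor of lymphatics, at 0.73 (0.104) and Stab2, a scavenger receptor, at -0.65 (0.097) on the log2 scale. Their summed level was 39.4 to 47.6 CPM in PBS and 45.5 to 58.9 CPM in anti-CD4 tumours. Of 16 tested genes of lymphoid stroma and lymphotoxin, 1 rose and 0 fell (2 lower at an unadjusted p under 0.05, 1 in DESeq2 and 3 in limma voom), with 2 higher without PBS 1 and 1 lower without anti-CD4 4. Pdpn, which encodes podoplanin of reticular fibroblasts and lymphatics, rose from 27.2 ± 2.16 to 34.2 ± 1.81 CPM (mean ± SD of 6; log2 change 0.33, SE 0.06; edgeR adjusted p = 0.0186), a call lost without anti-CD4 2, with a replicate block and with the library total as a covariate. Ltb, the lymphotoxin beta gene, was at -1.02 (edgeR adjusted p = 0.117) and Fut7, a selectin ligand enzyme, at -1.24 (0.106). Madcam1, Glycam1 and Chst4, markers of the high endothelial venules of lymph nodes, were too low to be tested. Among 10 blood endothelial markers 0 were called (1 higher at an unadjusted p under 0.05 in edgeR, 0 in DESeq2, 1 in limma voom), with Tek at 0.51, Cldn5 at 0.23, which was -0.11 with the library total as a covariate, and Pecam1 at -0.12.

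Among markers of other cells that can express the members, a minority passed the test, all of them lower. Of 20 T cell genes, 5 fell, with a median of -0.959, namely Cd5 (-2.18), Ubash3a (-0.61), Cd2 (-1.64), Zap70 (-1.47) and Cd27 (-0.96). The summed T cell level was 162 to 264 CPM in PBS and 78.4 to 164 CPM in anti-CD4 tumours. Thy1 was the largest part of that sum and was not called (edgeR adjusted p = 0.095). It was at 103 ± 22.1 CPM with PBS and 62.2 ± 24.1 CPM with the antibody (mean ± SD of 6). For T cell genes the count of 5 became 2 without PBS 2. That count was 1 without PBS 3, PBS 5, PBS 6, anti-CD4 2, anti-CD4 5 or anti-CD4 6. It was 8 without PBS 1 or anti-CD4 1, and 10 without anti-CD4 4. DESeq2 called 12 and limma voom 19 lower, beside 1157 and 3200 of all 17940 tested genes. Of the 5 edgeR calls, Cd5 alone held with a replicate block and with the library total as a covariate. Of 15 conventional dendritic cell genes, 4 fell, with a median of -0.518, namely Flt3 (-0.80), Zbtb46 (-0.69), Irf8 (-0.80) and Kmo (-0.75), and the summed level was 154 to 243 against 102 to 186 CPM. That count was 2 without PBS 2 and 1 without PBS 6, anti-CD4 2, anti-CD4 5 or anti-CD4 6. DESeq2 called 8 and limma voom 7 lower, and 0 of the 4 calls held with the block or with the covariate. The part of either cell type in the members' differences was not tested.

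Of 12 tested B cell genes 3 fell, Cd22 (-0.81), Blk (-1.63) and Cd37 (-0.33), with a list median of -0.365 and 10 of 12 values negative. Blk was scarce, at 0.531 ± 0.256 CPM with PBS and 0.175 ± 0.098 CPM with the antibody (mean ± SD of 6). The summed level was 83.3 to 99.8 CPM in PBS and 84.6 to 101 CPM in anti-CD4 tumours. Ebf1 made up most of that sum, at 55.6 ± 4.76 CPM with PBS and 63.8 ± 4.73 CPM with the antibody (mean ± SD of 6; log2 change 0.20, edgeR adjusted p = 0.0769). The sum therefore says little of the other B cell genes. Without PBS 2, PBS 6, anti-CD4 2, anti-CD4 5 or anti-CD4 6 the count of B cell genes that fell was 0, and it was 1 without PBS 4 or PBS 5. DESeq2 called 3 lower and 1 higher, limma voom 4 lower and 1 higher, and 0 of the 3 calls held with the block or with the covariate. Of 15 macrophage genes 0 were called by edgeR (5 lower at an unadjusted p under 0.05, 2 in DESeq2 and 2 in limma voom), with C1qb at -0.52, C1qa at -0.46 and Ccr2 at -0.30, and the summed level was 1988 to 3318 CPM in PBS and 1896 to 2234 CPM in anti-CD4 tumours. No list gene that could be found in the table was at 0 in every tumour apart from Ccl19-ps1.

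Relations between members were then examined from tumour to tumour within a group. Over 18 relations of 9 members with Ccr7, 0 passed an exact permutation test after adjustment (smallest adjusted p = 0.719) and 1 had an unadjusted p under 0.05. That was Bcl2l14 in PBS tumours (n = 6; Pearson r = 0.777, exact permutation p = 0.0458; Spearman rho = 0.829, p = 0.0583), and without the 2 tumours farthest from the Ccr7 median r was -0.226, so the relation rests on those tumours. The ligand genes, a pair chosen after seeing the values, had r = -0.058 in PBS (rho = -0.143, exact permutation p = 0.89 and 0.803) and r = 0.66 in anti-CD4 tumours (rho = 0.771, exact permutation p = 0.154 and 0.103, adjusted over both relations 0.308 and 0.206; n = 6 each), and without the 2 tumours farthest from the Ccl21a median r was 0.493 and 0.368.

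Against the T cell, conventional dendritic cell and lymphatic scores (mean log2 CPM of a list), 60 relations gave 0 past adjustment and 13 at an unadjusted p under 0.05. In the PBS tumours, Zmynd15 had r = 0.895 with the T cell score (n = 6, exact permutation p = 0.00694, adjusted p = 0.104; rho = 1, p = 0.00278, adjusted p = 0.0833; r = 0.773 without 2 tumours). In anti-CD4 tumours, Zmynd15 had r = 0.865 with the same score (n = 6, exact permutation p = 0.0361, adjusted p = 0.212; rho = 0.771, p = 0.103; r = 0.674 without 2 tumours). The T cell score was not the one closest to Zmynd15 in those tumours: with the lymphatic score it had r = 0.961 (n = 6, exact permutation p = 0.00278, adjusted p = 0.0833; rho = 0.943, p = 0.0167; r = 0.884 without 2 tumours) and with the conventional dendritic cell score r = 0.896 (n = 6, exact permutation p = 0.0389, adjusted p = 0.212; rho = 0.771, p = 0.103; r = 0.927 without 2 tumours). In PBS tumours its r with the lymphatic score was -0.816 (n = 6, exact permutation p = 0.0458, adjusted p = 0.218; rho = -0.943, p = 0.0167; r = -0.487 without 2 tumours). Cd200 had r = 0.954 with the T cell score in anti-CD4 tumours (n = 6, exact permutation p = 0.00139, adjusted p = 0.0833; rho = 1, p = 0.00278; r = 0.919 without 2 tumours), and Ccl21a r = 0.85 with the lymphatic score there (n = 6, exact permutation p = 0.0278, adjusted p = 0.208; rho = 0.943, p = 0.0167; r = 0.797 without 2 tumours). In PBS tumours the same relations had r = 0.244 for Cd200 and 0.794 for Ccl21a (n = 6 each, exact permutation p = 0.55 and 0.0764, adjusted p = 0.688 and 0.27; rho = 0.086 and 0.6, p = 0.919 and 0.242; r = 0.082 and -0.613 without 2 tumours). Ccl19 with the conventional dendritic cell score had opposite signs, with r = -0.937 in PBS and 0.839 in anti-CD4 tumours (n = 6 each, exact permutation p = 0.0208 and 0.0333, adjusted p = 0.179 and 0.212; rho = -0.886 and 0.886, p = 0.0333 for both; r = -0.923 and 0.793 without 2 tumours). Ccr7 with the T cell score had r = 0.249 in PBS and 0.357 in anti-CD4 tumours (exact permutation p = 0.496 and 0.486, adjusted p = 0.642 for both; rho = 0.829 and 0.371, p = 0.0583 and 0.497; r = 0.691 and -0.163 without 2 tumours). In anti-CD4 tumours Cd200 also had r = 0.881 with the conventional dendritic cell score (n = 6, exact permutation p = 0.00694, adjusted p = 0.104, r = 0.779 without 2 tumours). Of the 10 members there, 9 had a positive r with the T cell score, 9 with the conventional dendritic cell score and 8 with the lymphatic score. The median r was 0.677, 0.652 and 0.762, against -0.184, -0.009 and -0.1 in PBS tumours. Both scores and members come from the same libraries and share their depth.

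**Figure D5:**
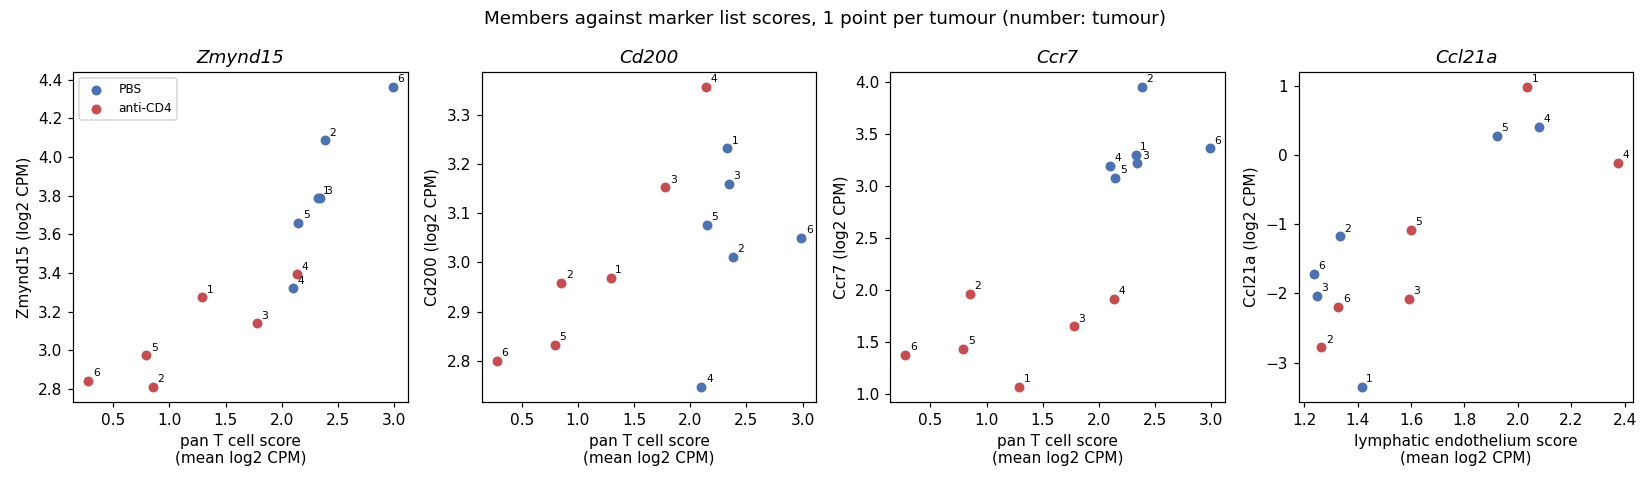
Member levels (log2 CPM) against a marker list score (mean log2 CPM) with 1 numbered point per tumour, PBS in blue and anti-CD4 in red. Within-group r with the T cell score, in PBS and in anti-CD4 tumours, was 0.895 and 0.865 for Zmynd15, 0.244 and 0.954 for Cd200 and 0.249 and 0.357 for Ccr7. Of 60 relations, 0 passed adjustment.

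As a description, genes were ranked by the Pearson correlation of their deviations from the group mean with those of a member over the 12 tumours, with 13570 genes ranked for Ccr7 and 13571 for Ccl21a. The pattern of Ccr7 was most like those of Prpf18 (r = 0.909), Cmc1 (0.907), Brox (0.899), Litaf (0.895), Tmem123 (0.885) and Washc4 (0.883), none of which was called between the groups (edgeR adjusted p from 0.151 to 0.965). That of Ccl21a was most like Adamts14 (0.957), Meis3 (0.945), Olfr1246 (0.932), Ank1 (0.932), Klhl33 (0.929) and Vmn2r31 (0.928). All these r values are the highest of the many genes ranked, rest on 12 tumours and were not tested. Ccl21a itself had only 2 to 67 counts per tumour. Neither set holds any other member or programme gene that was ranked. Genes with a negative mean log2 CPM were not ranked, among them Ccl19, Ccl21a, Lad1, Bcl2l14 and H2-M2. Their absence from both sets was therefore fixed in advance.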

How the data were processed

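Per the labels' protocols, libraries were made from depleted total RNA and read from both ends. Tools named in the submitters' processing notes are bcl2fastq 2.20.0.422 and kallisto, with build GRCm38.p6. Values are estimated counts by gene symbol as the authors deposited them, 35.7% to 37.9% of them not whole. The sources used here do not give the annotation release, strand setting or filters. The treatment label gave each group. The members and gene lists were chosen with earlier results of these data known.

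Counts were rounded, filtered with filterByExpr of edgeR 4.0.16 (R 4.3.3), scaled by TMM and tested with the quasi-likelihood F test (robust, no covariate), adjusted over 17940 genes. Each approximate SE is the log2 change divided by the root of F. Alternatives were RLE and upper quartile scaling, DESeq2 1.42.0, limma 3.58.1 voom, 2 other filters, a replicate block, a library total covariate and leaving out tumours. Correlations used log2 CPM (prior count 2), a score being the mean over a list. Pairs of tumours of 1 group differed by a chi-square per degree of freedom of 8.01 to 61.1, far above sampling noise. Genes and lengths are those of GENCODE M21. Besides the members, the rule named Cd4, the called genes of each list (at most 8, at least 3) and the 6 genes most like Ccr7 and Ccl21a. The edgeR fit was tested on simulated counts, and the other steps were not.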

Additional observations from a re-analysis of the deposited data

Results flagged for a closer look

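In 98 groups of 6 tumours (49 named genes in both groups), 5 held a tumour whose gap to its neighbour exceeded Dixon's 95% value (0.625 of the range) on the log2 scale, where chance gives about 1 in 20 groups. Ccr7 was at 15.4 CPM in PBS 2, with the next PBS tumour at 10.2 CPM. Traf1 was at 46.8 CPM in PBS 6, above the next at 39.2 CPM, and Cd37 at 20.9 CPM in the same tumour, above 17.5 CPM. Flt3 was at 3.75 CPM in anti-CD4 2, below the next at 5.1 CPM. Lrrn4, a mesothelial marker, was at 1.41 CPM in anti-CD4 6, above 0.511 CPM.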

How the results depend on the processing

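Genes called lower and higher numbered 418 and 529, and became 1157 and 1337 in DESeq2, 3200 and 2848 in limma voom with sample weights, 251 and 272 without a filter, 14 and 19 with a replicate block, 5 and 0 when the library total (log2) was a covariate (2193 in either direction at an unadjusted p under 0.05), 31 to 1480 and 29 to 1160 when each tumour was left out, 705 lower without anti-CD4 3 and 4 together, and 179 higher with upper quartile scaling. Programme genes called lower numbered 15 in DESeq2, 24 in limma voom, 2 with the replicate block, 1 with the library total, 20 without anti-CD4 3 and 4, and 2 to 12 when each tumour was left out, and called higher 2 in DESeq2, 3 in limma voom and 0 to 2. CCR7 axis genes called lower numbered 2 in DESeq2, 4 in limma voom, 0 with the block, 0 with the library total, 4 without anti-CD4 3 and 4, and 0 to 3, and called higher 1 in DESeq2, 2 in limma voom and 0 to 1. With a prior count of 0.5, 2 positive relations with marker scores passed, against 0. The cause of these shifts was not tested. No called gene that the naming rule gave, and no called member, changed sign under these settings. Same-numbered tumours had correlations of -0.409 to 0.229 and 0 of 12 tumours correlated best with its own number, so the numbers were not taken as pairs. Depth limits Ccl19, Ccl21a, Lad1 and Bcl2l14 most.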
